A study of Mus musculus with 6 samples.

Results

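The genes described here are 34 members of the pathway that runs from phosphoinositide 3-kinase (PI3K) through the kinase AKT to the kinase mTOR and the FOXO transcription factors. They were taken by name from a fixed list, and all 34 were found among the 24343 genes of the deposited expression tables. By role they were 20 activators, 9 brakes and 5 genes that the active pathway restrains or lowers. RNA sequencing measured expression in natural killer (NK) cells of the spleen, purified by flow sorting from female mice of the C57BL/6 strain. The sort kept NK1.1-positive, NKp46-positive cells and left out cells that stained for CD3 or bound a CD1d tetramer, which mark T cells and NKT cells. Mice had received either IL-15 complexed with a carrier (IL-15C, 3 libraries) or IL-2 complexed with a carrier (IL-2C, 3 libraries). The labels name no genetic change in either group, and they give neither the carrier, the dose, the time after treatment nor the age of the mice. No library of untreated mice was analysed here, so each value below compares IL-15C with IL-2C and not with resting cells.

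IL-2 and IL-15 signal through receptors that share their beta and gamma chains, and PI3K is among the routes those chains switch on. PI3K makes a membrane lipid that brings the kinases PDK1 and AKT together, AKT relieves the TSC block on the small GTPase Rheb, and Rheb with the Rag GTPases on the lysosome switches on mTOR complex 1, which drives protein synthesis and growth. AKT also phosphorylates FOXO factors, which then leave the nucleus, so that their target genes are less transcribed. Much of this control acts on the proteins by phosphorylation and binding, which an RNA measurement does not record. In NK cells mTOR activity is known for its part in growth, metabolism and cytotoxic arming, and FOXO1 for its part in homing and in restraining maturation.

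Each library gave values for 24343 genes, in FPKM (sequenced fragments divided by transcript length in kilobases and scaled to the number mapped in that library), with an implied depth of 23526567 to 27212608 fragments. The 8 NK cell markers were all present, with a summed level of 9256 to 9840 FPKM in IL-15C and 8682 to 9907 FPKM in IL-2C libraries, and none passed the test. Most of that sum was Gzma, at 5078 to 6048 FPKM. Klrd1 and Eomes were lower in IL-15C without overlap (limma adjusted p = 0.0512 and 0.0755), and the groups of the other NK cell markers overlapped. Summed markers of other cells were far lower. T cell markers summed to 50.7 to 71.8 FPKM in IL-15C and 52.6 to 57.4 FPKM in IL-2C, with 4 of 7 under 1 FPKM (Cd4, Cd8a, Cd8b1 and Cd5). Nearly all of that sum was RNA of the CD3 chains. Over the 6 libraries Cd3g was at 30.7 to 44.6, Cd3d at 15.3 to 22.3 and Cd3e at 3.40 to 5.70 FPKM. The listed T cell genes Trac, Trbc1 and Trbc2 had no value here. B cell markers summed to 7.91 to 42.7 FPKM in IL-15C and 15.5 to 66.8 FPKM in IL-2C, with 4 of 10 under 1 FPKM. Granulocyte markers summed to 40.8 to 110 FPKM in IL-15C and 40.7 to 59.9 FPKM in IL-2C, with 2 of 8 under 1 FPKM and Retnlg past the test, higher in IL-15C. Erythroid markers summed to 1.18 to 21.8 FPKM and 1.93 to 3.80 FPKM, with 5 of 6 under 1 FPKM, and IL-15C replicate 1 held the highest value of the granulocyte and erythroid sums. Monocyte, macrophage and dendritic cell markers summed to 262 to 277 FPKM in IL-15C and 216 to 230 FPKM in IL-2C. Most of that sum was Itgax, the integrin CD11c, which passed the test, while 6 of the 8 were under 1 FPKM. The part of these other cells in the results below was not tested.

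No member differed between IL-15C and IL-2C at the threshold used, an adjusted p of 0.05 from limma over the 9831 genes with a mean of at least 1 FPKM. Of the 33 members tested, 0 were higher and 0 were lower in IL-15C, where 1.72% of all tested genes were higher and 4.72% were lower, together 6.44%. At an unadjusted p under 0.05 limma gave 4 members, namely Ddit4 with the higher level in IL-15C, and Sesn1, Foxo1 and Txnip with the lower. That is 12.1% of the members, against 26.9% of all tested genes. The 3 values of each group did not overlap for 11 members, 3 higher and 8 lower in IL-15C, which is 33.3% of the members and 33.3% of all tested genes. In these respects the members' share was at or below the background.

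The differences were small in size, and the intervals given here hold for each gene taken singly and reflect only the spread among these libraries. The ratio of group means, IL-15C over IL-2C, lay between 0.9 and 1.1 for 31 of the 33 tested members. Ddit4, with a ratio of 1.204, and Txnip, with a ratio of 0.869, lay outside. The 95% interval of the log2 change stayed within a 1.5-fold difference for 33 of 33 members and within a 1.2-fold difference for 30 of 33, against 9656 and 6985 of the 9831 tested genes. The outermost bounds over the members were -0.37, for Txnip, and 0.43, for Ddit4, on the log2(FPKM + 1) scale. The median standard error (SE) of the members was 0.048, against 0.055 over all tested genes, and the genes called in the whole table had changes of 0.16 or more in size, with a median of 0.26. The intervals do not show that the members were at equal levels. In bulk RNA, fewer cells of a type and less RNA per cell cannot be told apart, which applies to each value here.

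**Figure D1:**
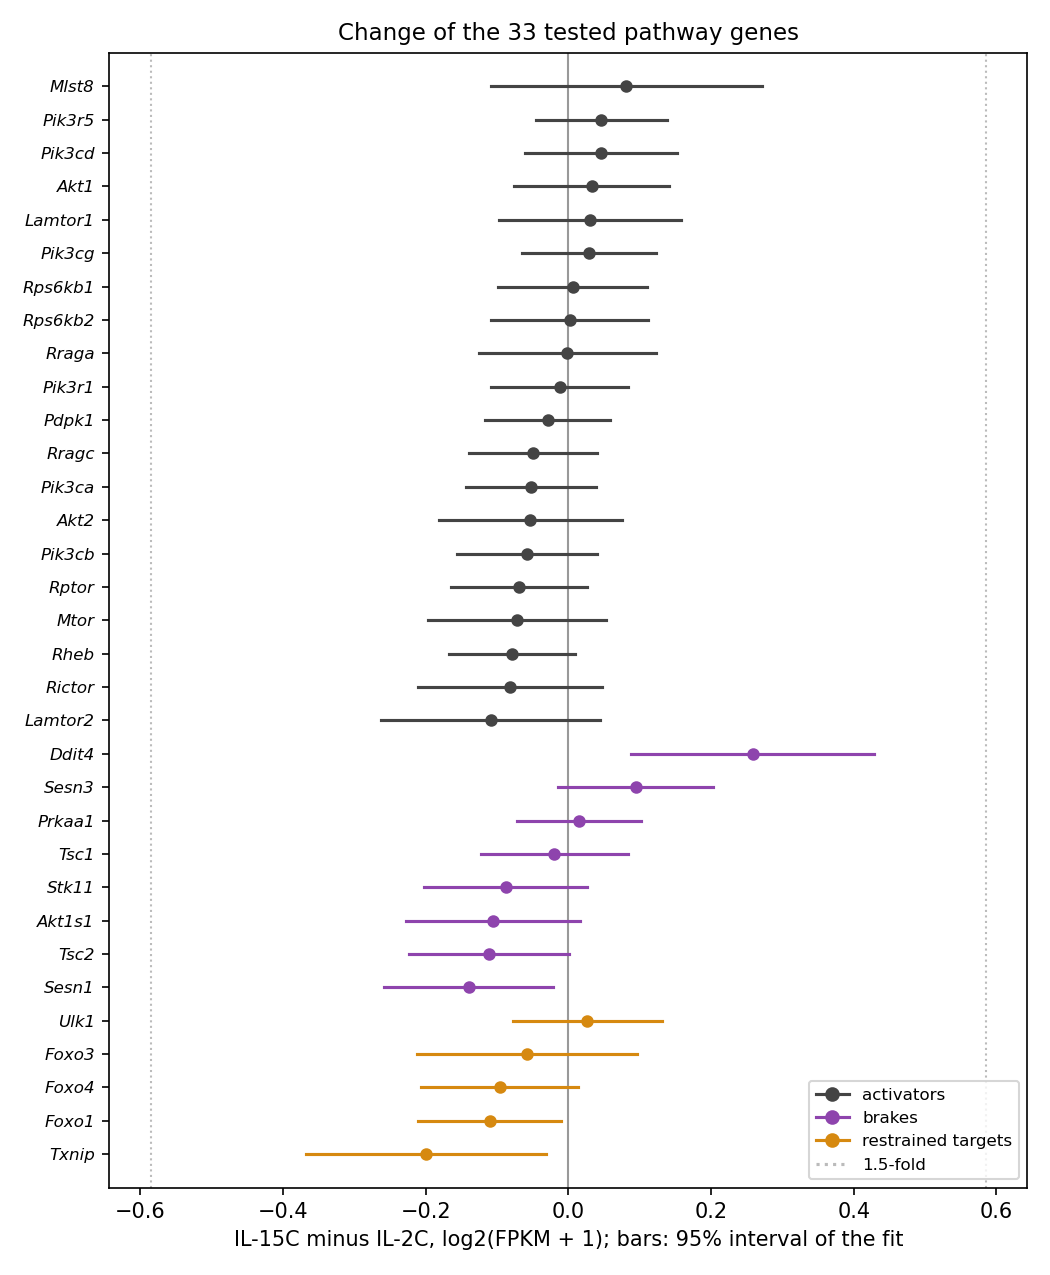
Log2 change of the 33 tested members, IL-15C minus IL-2C on the log2(FPKM + 1) scale (points), with the 95% interval of the limma fit (bars), grouped by role; dotted lines mark a 1.5-fold difference. All 33 intervals lie inside the dotted lines, and those of Ddit4, Sesn1, Foxo1 and Txnip leave out 0 before adjustment for the number of genes tested.

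The level of the members, which FPKM makes comparable between genes per length, spanned from 0.0511 FPKM for Deptor to 308 FPKM for Txnip over the 6 libraries. Behind Txnip came Pik3cd at 111 FPKM, then a group of 3 whose ranges overlapped from each to the next, Pik3r1 at 73.0, Akt1 at 71.1 and Pik3r5 at 70.2 FPKM. Lamtor2 at 57.2 and Akt2 at 52.9 FPKM followed, and then Sesn1 at 41.2 and Stk11 at 40.8 FPKM. The next were Rheb at 35.7 and Lamtor1 at 35.6 FPKM, Rragc at 28.5 and Pik3cg at 27.8 FPKM, and Pdpk1 at 26.0 and Sesn3 at 25.6 FPKM. A run of 9 genes between 22.5 FPKM (Pik3cb) and 14.8 FPKM (Pik3ca) had overlapping ranges from each gene to the next. It held Rraga, Rictor, Ddit4, Foxo1, Rps6kb2, Foxo4 and Prkaa1 in that order between them. Foxo3 at 12.4, Tsc2 at 11.8, Rps6kb1 at 11.5 and Rptor at 11.1 FPKM came next, Ulk1 stood alone at 9.45 FPKM, and Akt1s1 at 7.74, Tsc1 at 7.06 and Mtor at 6.60 FPKM followed. Mlst8 at 4.77 FPKM and Deptor closed the order. Of the 33 pairs of neighbours in the order, 20 had overlapping ranges over the 6 libraries and 13 did not.

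**Figure D2:**
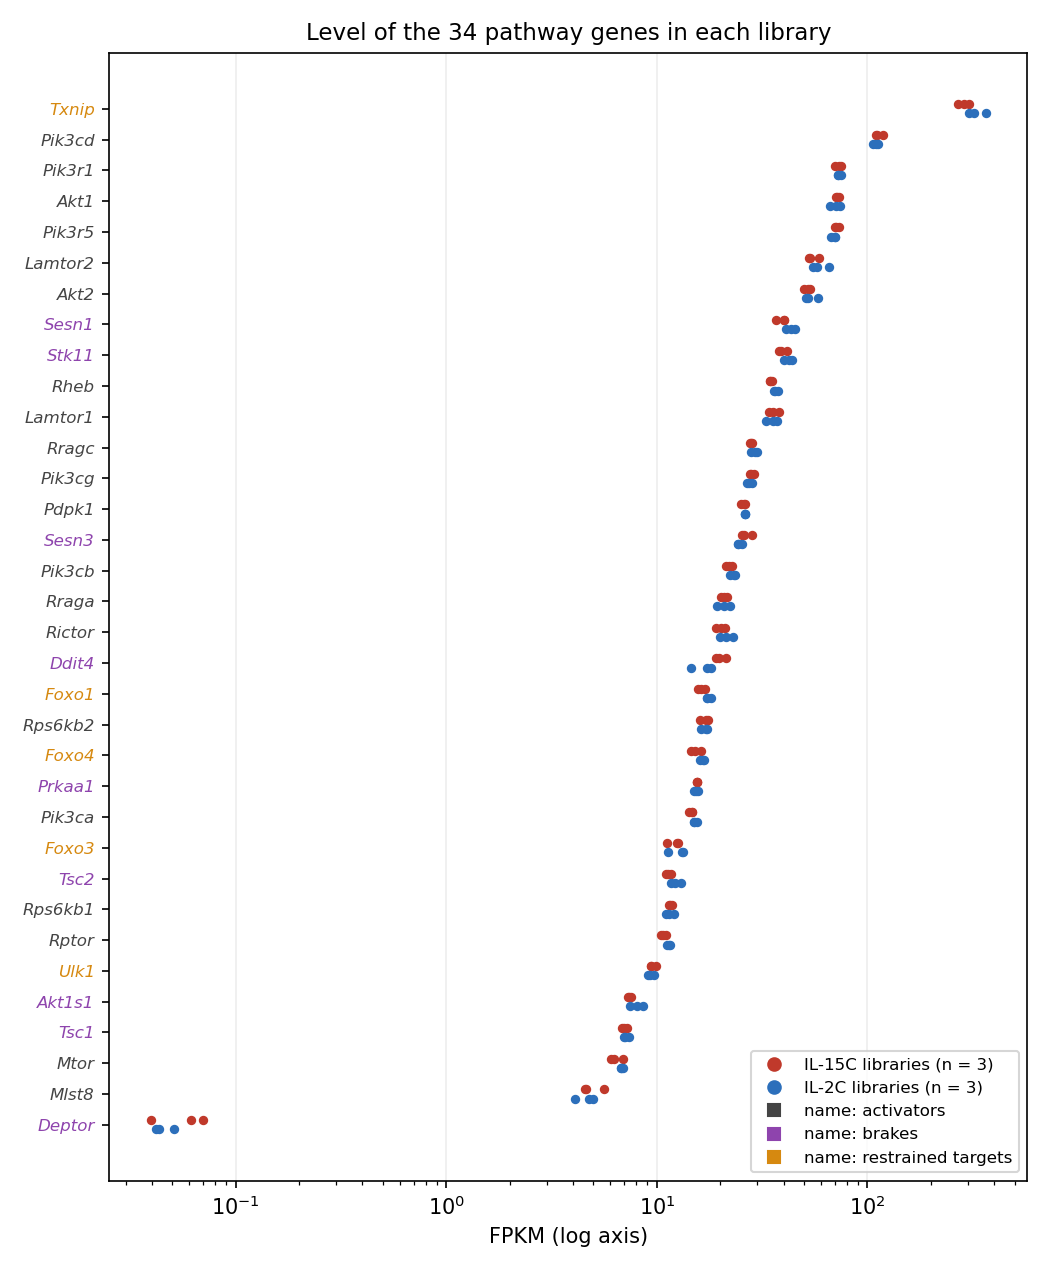
FPKM of the 34 members in each IL-15C library (red) and IL-2C library (blue), on a log axis, ordered by the mean over the 6 libraries, with names coloured by role. The red and blue points of a gene lie close together next to the whole span of levels, from Deptor at 0.0511 FPKM to Txnip at 308 FPKM. Genes next to each other in the order often overlap.

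The PI3K enzymes had a clear order of level in these NK cells and no member past the test. Among the catalytic subunits, Pik3cd, which encodes the delta form found mainly in leukocytes, was highest, with 119, 110 and 110 FPKM in IL-15C replicates 1, 2 and 3 and 110, 112 and 107 FPKM in IL-2C. These groups overlapped, with means of 113 ± 5.11 and 109 ± 2.74 FPKM (SD, n = 3), and the log2 change was 0.05 ± 0.05 (SE; 95% interval -0.06 to 0.15, limma adjusted p = 0.565). In every library Pik3cd stood above Pik3cg, the gamma form that G protein-coupled receptors switch on, by 4.0-fold in the mean. Pik3cg in turn exceeded the ubiquitous beta form Pik3cb 1.24-fold, and Pik3cb exceeded the ubiquitous alpha form Pik3ca 1.51-fold, each in 6 of 6 libraries with ranges apart. The changes between treatments were 0.03 for Pik3cg, -0.06 for Pik3cb and -0.05 for Pik3ca, with an SE of 0.04 each and limma adjusted p of 0.695, 0.415 and 0.432. The regulatory subunits were at like levels. Pik3r1, which stabilises the catalytic subunits below tyrosine kinase receptors, exceeded Pik3r5, the adaptor of the gamma form, 1.04-fold and in 5 of 6 libraries. Their changes were -0.01 ± 0.04 and 0.05 ± 0.04 (limma adjusted p = 0.877 and 0.498), and Pik3r5 was the only activator whose 3 IL-15C values, 73.0, 70.9 and 70.2 FPKM, all exceeded the IL-2C values of 69.9, 70.1 and 67.2 FPKM.

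No kinase just below PI3K passed the test, and the differences were small next to their errors. Pdpk1, which encodes PDK1, the kinase that activates AKT, had 26.0, 26.2 and 25.1 FPKM in IL-15C and 26.3, 26.2 and 26.3 FPKM in IL-2C. The IL-15C values were all below those of IL-2C, the closest pair being equal to 3 digits, and the log2 change was -0.03 ± 0.04 (limma adjusted p = 0.657). Akt1 exceeded Akt2 1.34-fold in the mean of the 6 libraries. The changes of Akt1 and Akt2 were 0.03 ± 0.05 and -0.05 ± 0.06, with limma adjusted p of 0.695 and 0.577. Akt2 was highest in IL-2C replicate 1, at 58.5 FPKM, against 49.9 to 53.4 FPKM in the other 5 libraries.

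No activator member among the subunits of the mTOR complexes passed the test, and all of them but Rictor were among the lower members per length. Mtor, the kinase of both complexes, had 6.94, 6.28 and 6.02 FPKM in IL-15C and 6.74, 6.74 and 6.89 FPKM in IL-2C, which overlap through IL-15C replicate 1. Its log2 change was -0.07 ± 0.06 (95% interval -0.20 to 0.05, limma adjusted p = 0.426). Rptor, which encodes the scaffold of mTOR complex 1, had a log2 change of -0.07 ± 0.04, and Rictor, the scaffold of mTOR complex 2, one of -0.08 ± 0.06 (limma adjusted p = 0.325 and 0.384). Mlst8, a subunit of both complexes, had the lowest level of the tested members and the widest interval of the activators upward, with a log2 change of 0.08 ± 0.08 (95% interval -0.11 to 0.27, limma adjusted p = 0.563). Per length, Rictor exceeded Rptor 1.87-fold, Rptor exceeded Mtor 1.68-fold and Mtor exceeded Mlst8 1.38-fold, with ranges apart in each case. The S6 kinases, which phosphorylate ribosomal protein S6 for mTOR complex 1, had changes of 0.006 for Rps6kb1 and 0.002 for Rps6kb2, each with an SE of 0.05 (limma adjusted p = 0.948 and 0.985). Rps6kb2 shares 23.7% of its exonic bases with Ptprcap on the other strand, a gene at 352 FPKM, and Mlst8 shares 22.5% with Bricd5. No source used here gives the strand setting of the libraries, so the levels of these members are uncertain.

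The lysosomal switches of mTOR complex 1 held no member past the test either. Rheb, the GTPase that TSC holds off, had 35.2, 34.4 and 34.3 FPKM in IL-15C and 37.6, 36.2 and 36.3 FPKM in IL-2C. All 3 IL-15C values lay below the IL-2C values, and the change was -0.08 ± 0.04 (95% interval -0.17 to 0.01, limma adjusted p = 0.229). Lamtor2, a part of the Ragulator scaffold that anchors the Rag GTPases to the lysosome, showed the largest difference of the activators in size. The IL-15C libraries read 58.8, 52.7 and 53.4 FPKM and the IL-2C libraries 65.5, 55.2 and 57.7 FPKM, with means of 55.0 ± 3.32 and 59.4 ± 5.36 FPKM (SD, n = 3). Replicate 1 was the high library of each group, the groups overlapped, and the log2 change was -0.11 ± 0.07 (95% interval -0.26 to 0.04, limma adjusted p = 0.334). Lamtor1, its membrane anchor, had a value of 0.03 ± 0.06, and the Rag GTPases Rraga and Rragc had -0.002 ± 0.06 and -0.05 ± 0.04 (limma adjusted p = 0.761, 0.988 and 0.449). Lamtor1 shares 18.7% of its exonic bases with Lrrc51, which was at 1.49 FPKM. Over the 20 activators, 0 passed the test in either direction, 12 changes were below 0, the median change was -0.02 and the range ran from -0.11 to 0.08, beside a median of -0.04 over all tested genes with 64.7% below 0. Scaling the libraries to a common median moved the activators' median to 0.024, with 9 below 0, and that of all tested genes to 0.0005.

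Among the brakes, Ddit4 had the largest difference of all 33 tested members and the lowest adjusted p. Ddit4 (chr10:59949675-59951770, minus strand, mm10) encodes REDD1, which cells make under stress, low oxygen or glucocorticoids and which restrains mTOR complex 1 through TSC. The IL-15C libraries read 21.2, 19.1 and 19.7 FPKM and the IL-2C libraries 17.99, 17.4 and 14.5 FPKM, with means of 20.0 ± 1.09 and 16.6 ± 1.86 FPKM (SD, n = 3). All 3 IL-15C libraries stood above all 3 IL-2C libraries, with IL-15C replicate 1 the highest and IL-2C replicate 3 apart at the low end. The log2 change was 0.26 ± 0.08 (95% interval 0.09 to 0.43), with an unadjusted p of 0.00748 and an adjusted p of 0.0711 from limma, which misses the threshold. It passed, always higher in IL-15C, when the libraries were scaled to a common median (0.30, limma adjusted p = 0.0338), rescaled to a common sum (TPM; 0.27, 0.0477), quantile normalized (0.30, 0.0416) or weighted by their quality in limma (array weights; 0.20, 0.0370). Leaving out each library in turn gave 0.17 to 0.31 with adjusted p of 0.105 to 0.141, and without IL-2C replicate 3 the change was 0.17, with an adjusted p of 0.107. The granulocyte and erythroid marker sums were highest in the library with the highest Ddit4 value, and without that library the Ddit4 change was 0.22.

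The sestrins, which curb mTOR complex 1 when amino acids are short, lay on opposite sides: Sesn1 had the lower and Sesn3 the higher values in IL-15C, and neither passed the test. Sesn1 (chr10:41810574-41908436, plus strand) had 36.9, 40.2 and 40.2 FPKM in IL-15C and 43.2, 45.4 and 41.0 FPKM in IL-2C, with means of 39.1 ± 1.94 and 43.2 ± 2.16 FPKM (SD, n = 3). The IL-15C values all lay below the IL-2C values, narrowly at IL-2C replicate 3, with a log2 change of -0.14 ± 0.05 (95% interval -0.26 to -0.02), an unadjusted p of 0.0256 and an adjusted p of 0.130 from limma. With array weights it passed, at -0.15 and an adjusted p of 0.0366. Sesn3 had 28.2, 25.8 and 25.4 FPKM in IL-15C and 24.4, 24.4 and 25.3 FPKM in IL-2C, again without overlap, and a log2 change of 0.09 ± 0.05 (limma adjusted p = 0.244). Sesn1 exceeded Sesn3 in every library, by 1.61-fold in the mean over the 6. Whether the changes of Sesn1 and Sesn3 differ from each other was not tested.

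The log2 changes of the remaining tested brakes ran from -0.11 to 0.01, beside a median of -0.04 over all tested genes. Tsc2, the GTPase-activating subunit of the TSC complex that turns Rheb off, had 11.6, 11.02 and 11.3 FPKM in IL-15C and 13.04, 12.2 and 11.7 FPKM in IL-2C, which did not overlap, and a log2 change of -0.11 ± 0.05 (limma unadjusted p = 0.0517, adjusted p = 0.190). Its partner Tsc1, which stabilises it, had a change of -0.02 ± 0.05 (limma adjusted p = 0.812), and Tsc2 exceeded Tsc1 1.67-fold per length. Akt1s1, which encodes the mTOR complex 1 inhibitor PRAS40, had a change of -0.11 ± 0.05 (limma adjusted p = 0.244). Prkaa1, a catalytic subunit of the energy sensor AMPK, and Stk11, which encodes its activating kinase LKB1, had changes of 0.01 ± 0.04 and -0.09 ± 0.05 (limma adjusted p = 0.836 and 0.294). Deptor, an inhibitor that binds mTOR in both complexes, was at 0.0613, 0.0396 and 0.0698 FPKM in IL-15C and 0.0431, 0.0509 and 0.0419 FPKM in IL-2C, which rest on 12 to 23 implied fragments a library. Its mean was under 1 FPKM, which kept it out of the fit reported here. Its groups overlapped, the ratio of means was 1.26, and the exact two-sided permutation test gave p = 0.4, where 0.1 is the smallest that 3 against 3 libraries allow. Of the 8 brakes tested, 0 passed, 5 had changes below 0, and the median change was -0.05.

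The FOXO factors themselves are targets that AKT holds out of the nucleus. Foxo1 (chr3:52268337-52350109, plus strand) had 16.9, 16.2 and 15.6 FPKM in IL-15C and 18.1, 17.3 and 17.4 FPKM in IL-2C, with means of 16.2 ± 0.633 and 17.6 ± 0.439 FPKM (SD, n = 3). The groups did not overlap, and the log2 change was -0.11 ± 0.04 (95% interval -0.21 to -0.01), with an unadjusted p of 0.034 and an adjusted p of 0.151 from limma. Foxo3, with 12.4, 11.2 and 12.6 FPKM in IL-15C and 13.2, 13.3 and 11.3 FPKM in IL-2C, overlapped between groups (log2 change -0.06 ± 0.07, limma adjusted p = 0.616). Foxo4 had 14.5, 15.1 and 16.2 FPKM in IL-15C and 16.7, 16.5 and 16.0 FPKM in IL-2C, and the groups met only where IL-15C replicate 3 exceeded IL-2C replicate 3 (log2 change -0.10 ± 0.05, limma adjusted p = 0.238). By level, Foxo1 exceeded Foxo4 1.07-fold, in 5 of 6 libraries with overlapping ranges, and Foxo4 exceeded Foxo3 1.28-fold with ranges apart.

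Txnip and Ulk1 complete the genes that the active pathway restrains. Txnip (chr3:96557957-96561857, plus strand) encodes a thioredoxin-binding protein that limits glucose uptake, is known to follow glucose and FOXO activity, and was the most abundant member. It had 268, 303 and 289 FPKM in IL-15C and 364, 319 and 305 FPKM in IL-2C, with means of 286 ± 17.5 and 330 ± 31.0 FPKM (SD, n = 3). IL-2C replicate 1 was the high library, and IL-15C replicate 2 and IL-2C replicate 3 nearly met. The log2 change was -0.20 ± 0.07 (95% interval -0.37 to -0.03), with an unadjusted p of 0.0251 and an adjusted p of 0.128 from limma, and without IL-2C replicate 1 it was -0.13. The deposited interval of Txnip implied 3966 to 4172 fragments in every library although its FPKM differed more, so for Txnip it does not act as a plain count. Akt1 had a like pattern, with 1905 to 1939 implied fragments at 66.3 to 73.7 FPKM, so the limit may hold for further genes. Of the exonic bases of Txnip, 19.4% are shared with the antisense gene Gm15441, at 0.381 FPKM. Ulk1, the autophagy kinase that mTOR complex 1 holds inactive, had 9.38, 9.89 and 9.37 FPKM in IL-15C and 9.31, 9.71 and 9.05 FPKM in IL-2C (log2 change 0.03 ± 0.05, limma adjusted p = 0.743). Of these 5 genes, 0 passed the test, 4 had changes below 0 under each of the 4 scalings tried, and the median change was -0.10.

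**Figure D3:**
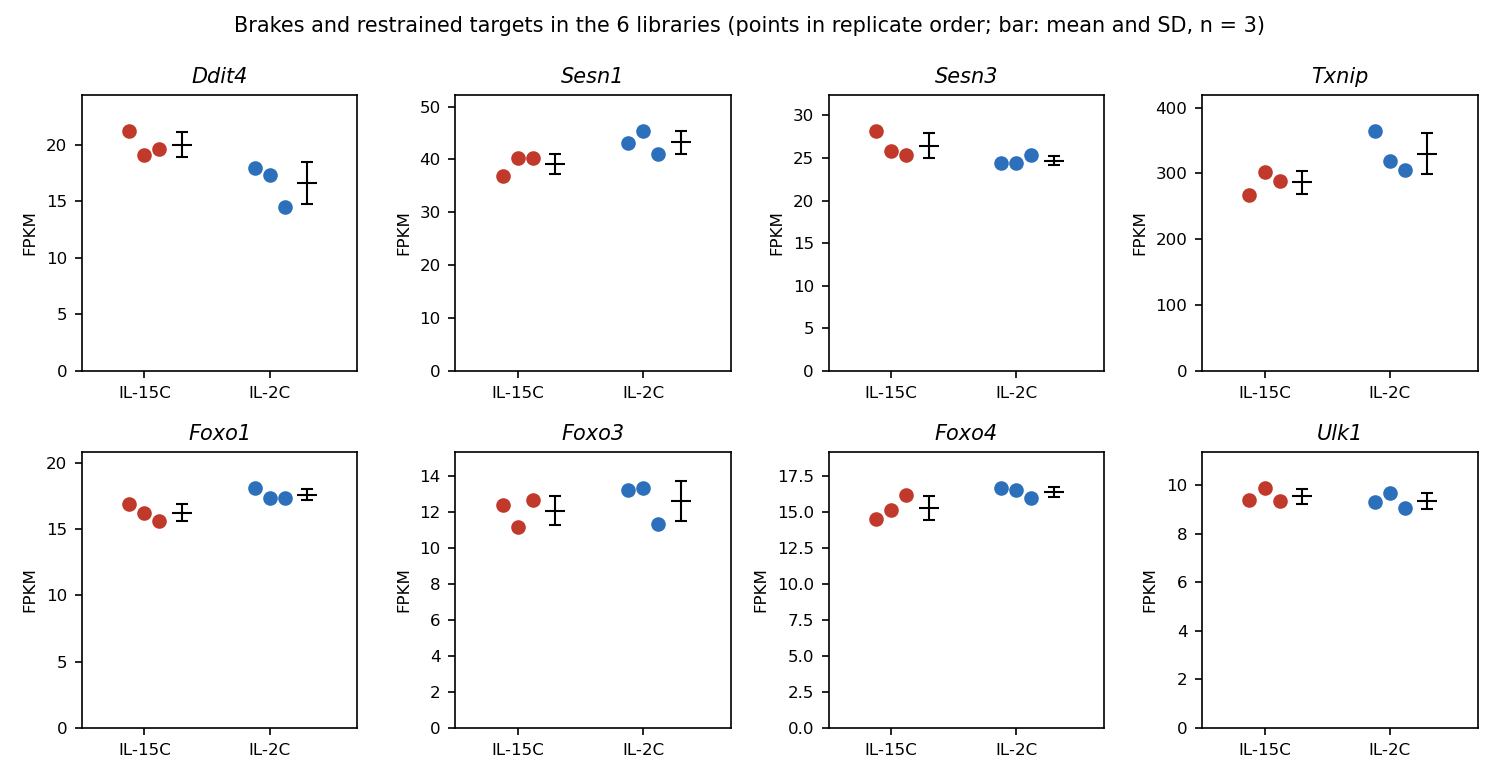
FPKM of the brakes Ddit4, Sesn1 and Sesn3 and of the 5 restrained targets in the 3 IL-15C (red) and 3 IL-2C (blue) libraries, points in replicate order, with the mean and SD beside them and axes that start at 0. Ddit4 and Sesn3 have their 3 IL-15C points above the IL-2C points, Sesn1, Foxo1 and Txnip have them below, and Foxo3, Foxo4 and Ulk1 overlap.

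The start regions of the members with the largest differences, Ddit4 and Txnip, are shown because FOXO factors read DNA and Txnip is a gene they are known to control. The sequences are the 250 bases before the start site in RefSeq on GRCm38.p6, the same assembly as mm10, written along the gene. Capitals mark the FOXO core motif GTAAACA, searched on both strands (TGTTTAC on the other), which overlaps no other motif searched. The Txnip stretch lies at chr3:96557707-96557956 on the plus strand with 66.8% G and C and 1 match, and the Ddit4 stretch at chr10:59951771-59952020 on the minus strand with 70.0% G and C and 0 matches.
Txnip: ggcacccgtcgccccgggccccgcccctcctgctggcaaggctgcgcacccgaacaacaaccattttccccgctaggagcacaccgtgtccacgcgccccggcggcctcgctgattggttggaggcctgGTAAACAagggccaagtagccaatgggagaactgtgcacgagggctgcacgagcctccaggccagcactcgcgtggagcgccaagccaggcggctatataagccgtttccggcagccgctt
Ddit4: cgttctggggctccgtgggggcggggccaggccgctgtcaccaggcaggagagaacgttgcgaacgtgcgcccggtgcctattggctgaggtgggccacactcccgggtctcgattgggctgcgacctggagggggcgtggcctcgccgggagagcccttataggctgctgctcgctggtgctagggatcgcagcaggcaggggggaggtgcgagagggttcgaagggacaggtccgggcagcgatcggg

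In windows of 250 bases before to 50 after the start, 5 of the 31 members with a window in the RefSeq table (16.1%) held the motif, against 1095 of 27025 genes (4.05%). The matches are given with 11 bases on each side, on the gene's strand, to show what surrounds the core; TGTTTAC is the motif read on the opposite strand. A match describes the letters and is not evidence of binding. Counted from the RefSeq start, with bases before it negative, the first motif base stood at -161 in Akt1, -92 in Pik3cg, 23 in Sesn1, 17 in Stk11 and -121 in Txnip. The loci are chr12:112675028-112675056 (minus strand), chr12:32208545-32208573 (minus), chr10:41810585-41810613 (plus), chr10:80115800-80115828 (plus) and chr3:96557825-96557853 (plus) in the order printed.
Akt1: atctaccctctTGTTTACactcctggtga
Pik3cg: tttttcctaaaGTAAACAaatgatcctcc
Sesn1: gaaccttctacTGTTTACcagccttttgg
Stk11: ggcgcagggcgGTAAACAagatggcggcg
Txnip: ttggaggcctgGTAAACAagggccaagta

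The 5 members with a match did not share a direction in the expression data. Their log2 changes were 0.03 for Akt1, 0.03 for Pik3cg, -0.14 for Sesn1, -0.09 for Stk11 and -0.20 for Txnip, and none passed the test. Among the FOXO target genes described below, 1 of 14 with a window held the motif, Bcl2l11.

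The libraries of a group were not equally placed. IL-2C replicate 1 gave the highest value of 14 of the 33 tested members and IL-15C replicate 3 gave the highest of 0. The median deviation of the members from their own mean was 0.051 on the log2 scale in IL-2C replicate 1, where that of all tested genes was 0.046, and between -0.019 and 0.014 in the other 5 libraries. The members of that library thus lay about as far up as its other genes. The authors' deposited group table, which gives FPKM per treatment with interval bounds, was read for the same genes. In the authors' deposited table the intervals of all 34 members overlapped between treatments, as did those of 9751 of the 9831 tested genes. In the authors' deposited table the ratio of IL-15C to IL-2C ran from 0.898 for Txnip to 1.24 for Ddit4 (27.1 against 21.8 FPKM), Deptor left out, with 0.935 for Sesn1 and 0.951 for Foxo1.

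Other genes of the pathway came from 4 further lists with 82 distinct genes, of which 80 were found and 71 tested. Of these, 2 rose and 5 fell in IL-15C against IL-2C, beside 169 and 464 of the 9831 tested genes (1.72% and 4.72%). Each of the 7 lost its call in at least 2 of the 6 fits that left out a library, and none of them passed without IL-2C replicate 1 or without IL-2C replicate 2. None passed when every gene in the tables was tested without the filter on low values. The lists of other activators and other brakes had medians of -0.05 and -0.04, beside -0.04 over all tested genes.

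Among the 25 other activators tested, 1 rose and 2 fell. Sgk1, a kinase related to AKT that PDK1 and mTOR complex 2 activate and that also phosphorylates FOXO factors, had 31.7, 35.6 and 34.5 FPKM in IL-15C and 47.4, 51.8 and 43.0 FPKM in IL-2C. All IL-15C values were below all IL-2C values, and Sgk1 fell by 0.47 ± 0.07 on the log2 scale (means 33.9 ± 1.98 and 47.4 ± 4.40 FPKM, SD, n = 3; limma adjusted p = 0.0120). Prr5, which encodes the mTOR complex 2 subunit Protor-1, had 10.96, 11.1 and 9.81 FPKM in IL-15C and 9.24, 8.15 and 7.54 FPKM in IL-2C, and rose by 0.32 ± 0.07 (limma adjusted p = 0.0368). Its relative Prr5l had a change of -0.16 (limma adjusted p = 0.174), and the mTOR complex 2 subunit Mapkap1 one of -0.05 (limma adjusted p = 0.644). These last members of the complex were picked for their role after their values were seen.

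Of the 22 other brakes tested, 1 fell and 0 rose. Phlpp1, a phosphatase that removes a phosphate from AKT, had 3.60, 3.70 and 3.69 FPKM in IL-15C and 4.92, 4.53 and 4.51 FPKM in IL-2C. It fell by 0.28 ± 0.05 (means 3.66 ± 0.057 and 4.65 ± 0.236 FPKM, SD, n = 3; limma adjusted p = 0.0235). Inpp5d, which encodes the lipid phosphatase SHIP1 and was named after its value was seen, had a change of -0.003 (limma adjusted p = 0.979). Sesn2, the sestrin of lowest level, 6.53-fold below Sesn3, had a change of 0.20 ± 0.08 (limma adjusted p = 0.131).

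Among genes listed as FOXO targets, 15 of 18 were tested, 2 fell and 0 rose, where 4.72% of all tested genes fell and 1.72% rose. Whether FOXO factors control each listed gene in lymphocytes was not tested. Ccr7, Trib1 and Rag1 had means under 1 FPKM and were not tested. The ratio of means, IL-15C over IL-2C, was 0.54 for Ccr7 and 1.31 for Trib1, and the groups overlapped for both. Ccr7 rested on 3 to 31 implied fragments a library and Trib1 on 43 to 63. Rag1 was above 0 only in IL-15C, at 0.012 FPKM or less. It rested on 0 to 3 implied fragments a library, too few to compare the treatments. All 15 tested changes were below 0 in the deposited scaling and under TPM, and 14 were under a common median or quantile normalization. Their median was -0.21 in the deposited scaling and -0.16 to -0.19 under the 3 others. Bcl6, a transcriptional repressor, had 9.21, 10.1 and 10.3 FPKM in IL-15C and 13.6, 14.1 and 12.8 FPKM in IL-2C, and fell by 0.42 ± 0.05 (limma adjusted p = 0.00905). Bnip3, a mitochondrial autophagy receptor, had 3.47, 2.84 and 3.33 FPKM in IL-15C and 4.001, 4.41 and 4.52 FPKM in IL-2C. It fell by 0.34 ± 0.07 (limma adjusted p = 0.0323) and missed the threshold under a common median (-0.30) and TPM (-0.32). At an unadjusted p under 0.05, 10 of the 15 were lower and 0 higher, and the groups of 10 did not overlap, all 10 lower in IL-15C. Over the 9831 tested genes, 2006 were lower and 637 higher at that p, 2471 were lower and 801 higher without overlap, and 64.7% had changes below 0. Those just outside the threshold, named after their values were seen, were Cdkn1b, which encodes the cell cycle inhibitor p27, at -0.23 and the transcriptional regulator Cited2 at -0.22 (limma adjusted p = 0.0545 each). Gadd45a, a DNA damage response gene, was at -0.19 (0.0562) and the cyclin gene Ccng2 at -0.24 (0.0565). Klf2, a transcription factor of lymphocyte homing, had a change of -0.21 (limma adjusted p = 0.10). Many other signals control these genes too, and the list was not compared with other genes by a test. It was also chosen with earlier results of these data known.

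Of the 11 tested genes known to rise with mTOR complex 1 activity, 1 rose and 0 fell, where 1.72% of all tested genes rose and 4.72% fell. At an unadjusted p under 0.05 limma gave 3 higher and 0 lower, where 637 and 2006 of the 9831 tested genes were. Without overlap of the groups 4 were higher and 0 lower, where 801 and 2471 of all tested genes were. This list too was not compared with other genes by a test. Srebf2, the transcription factor of cholesterol synthesis, had 17.0, 17.0 and 15.7 FPKM in IL-15C and 13.02, 13.5 and 12.9 FPKM in IL-2C, and rose by 0.31 ± 0.05 (means 16.5 ± 0.710 and 13.1 ± 0.318 FPKM, SD, n = 3; limma adjusted p = 0.0118). Its relative Srebf1, named after its value was seen, had a change of 0.05 (limma adjusted p = 0.601). The list's median change was 0.08 and 3 changes were below 0. Slc7a5, an amino acid transporter subunit named for the same reason, had the largest value in the list, 0.44 ± 0.15 (limma adjusted p = 0.107), with 3.28, 1.99 and 1.61 FPKM in IL-15C and 1.32, 1.45 and 1.33 FPKM in IL-2C. Its high library was IL-15C replicate 1, the library with the highest granulocyte and erythroid marker sums, and the part of those cells in its value was not tested.

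**Figure D4:**
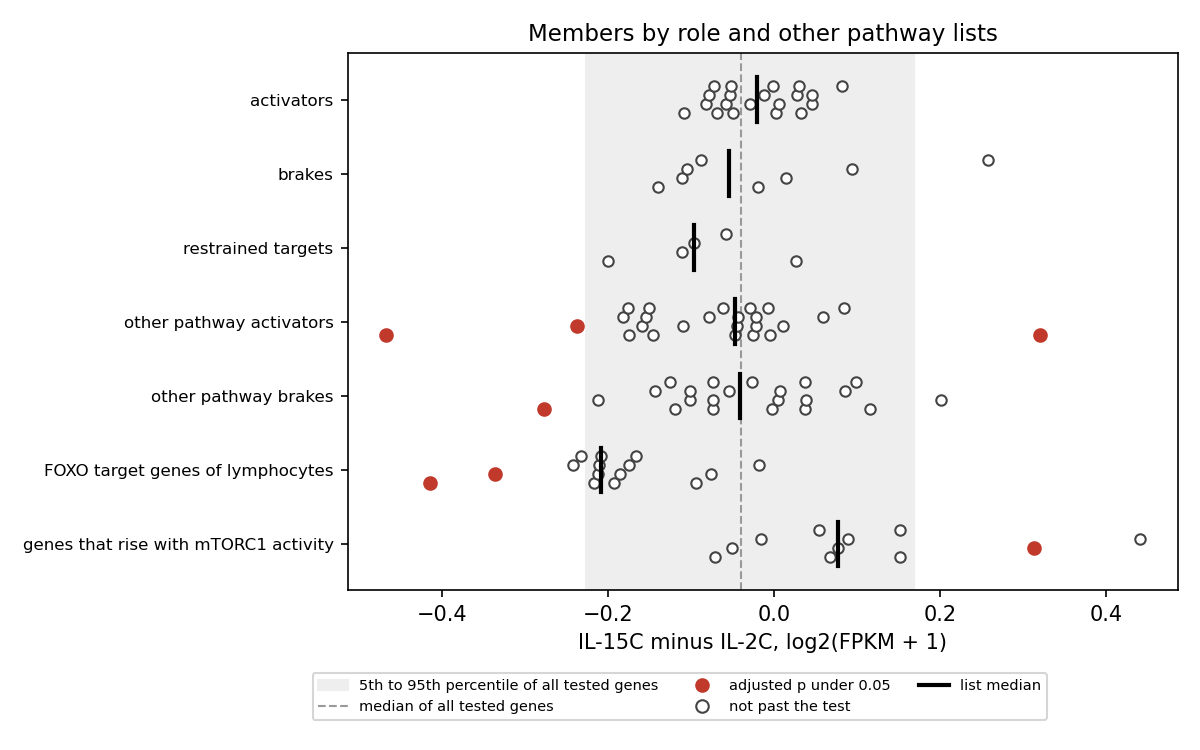
Log2 change of each tested gene, IL-15C minus IL-2C on the log2(FPKM + 1) scale, for the members by role and for the 4 other lists; filled points passed the limma test, black bars are list medians, and the grey band spans the 5th to 95th percentile of all tested genes (-0.23 to 0.17) around their median. No member is filled, 7 genes of the other lists are, and the 15 FOXO target genes all lie below 0.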

How the data were processed

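Samples were grouped by their titles, 3 IL-15C and 3 IL-2C libraries. The submitters' processing notes name the mm10 genome, Cufflinks 2.2.1 and TopHat2 2.0.13; the annotation is not given in the sources here. Per the file headers, the deposited tables hold FPKM with interval bounds, for each library and, in a further table, for each treatment. Count models do not apply to FPKM.

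Repeated rows (280 genes) were added up, and 10 genes whose estimate failed somewhere were dropped. Implied fragments were read from each deposited interval as 2 SD of a Poisson count and cover counting error only. For some genes, Txnip and Akt1 among them, they varied less than FPKM, so they and the depth summed from them are rough. Genes with a mean of at least 1 FPKM (9831) were tested on log2(FPKM + 1) by limma (moderated, two-sided, variance trend on intensity), with Benjamini-Hochberg adjustment over all of them. The log2(FPKM + 1) scale understates changes of low genes. Whether each library is a mouse of its own is not in the labels: the p-values reflect only the spread among these samples, possibly a technical one.

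Members, roles and lists were chosen with earlier results of these data known. Values in every library were given for members past the test, the largest change and highest level of each role, the FOXO genes and Deptor, and for up to 3 called genes of each other list; further library values were added after they were seen. Of the genes so chosen, 1 is not reported here. Castor1 and Castor2 were not found under those names. Positions are 1-based on mm10, shared exonic bases are from GENCODE M21, and sequences are from RefSeq. The alternatives were pseudocounts of 0.1 and 5, no filter or 5 FPKM, 3 scalings, array weights, a fit with no variance trend, a replicate block and omission of each library; for the other lists they were added after the data were seen. The test was tried on simulated data. The software was limma 3.58.1 (R 4.3.3), numpy 2.4.6, pandas 2.3.3, matplotlib 3.10.9 and scipy 1.17.1 (Python 3.11.15).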

Additional observations from a re-analysis of the deposited data

How the results depend on the processing

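Of 527 values of the 33 tested members under the alternatives, 496 kept direction and side of the threshold, 5 newly passed it (2 genes, Ddit4 and Sesn1) and 26 changed sign (10 genes, none past the threshold). Members called higher were 0 in the reported fit and 1 under a common median, TPM, quantile normalization and array weights; members called lower were 0 and, with array weights, 1; leaving out libraries gave 0 to 0 in both directions. Over all tested genes, 169 higher and 464 lower became 12 and 17 with no filter, 325 and 207 under a common median, 204 and 326 under TPM, 307 and 269 under quantile normalization, and 440 and 1667 with array weights. Leaving out a library gave 14 to 176 higher and 15 to 575 lower. The lowest counts came without IL-2C replicate 2 (14 and 15) and without IL-2C replicate 1 (27 and 19), followed by IL-15C replicate 2 (68 and 110), IL-15C replicate 3 (102 and 146) and IL-2C replicate 3 (86 and 248). Genes of the other lists called higher were 2 in the reported fit, 0 with no filter and 0 to 2 without a library; those called lower were 5, and 0 with no filter, 3 under a common median, 13 with array weights and 0 to 6 without a library. The 7 called genes of those lists kept their direction in all 110 values and lost the threshold in 36. The cause was not tested in any of these, except that no filter adds genes to the adjustment and an omission leaves 5 libraries.

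The log2 changes that changed sign were all close to 0. Pik3r1 was 0.032 under a common median, 0.0034 under TPM, 0.016 with array weights and -0.032 to 0.011 without a library. Pdpk1 was 0.015 under a common median and 0.0048 under quantile normalization, Tsc1 0.020 and 0.026, and Rraga 0.042, 0.036 and, under TPM, 0.014. Rps6kb1 was -0.037 with array weights. Without a library, Rraga gave -0.050 to 0.047, Rps6kb1 -0.020 to 0.040, Rps6kb2 -0.026 to 0.039, Lamtor1 -0.014 to 0.068, Akt1 -0.0090 to 0.067, Akt2 -0.091 to 0.0057 and Mlst8 -0.00085 to 0.13.

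The titles number the replicates and do not say whether the numbers pair the libraries. Deviations of same-numbered libraries from their group means had correlations of -0.029, -0.156 and -0.024. Those of differently numbered libraries ran from -0.143 to 0.177. Deviations from a mean of 3 libraries are not independent, so these values do not settle whether the numbers pair. With a replicate block, 171 genes were higher and 346 lower, members called higher and lower were 0 and 0, the other lists had 2 higher and 7 lower, and of the named calls Bnip3 missed the threshold. The depth limits Deptor, whose ratio of means was 1.11 to 1.45 without a library. Dose, time, strand and the number of mice are not in the labels.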

Other observations

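A gene of the PI3K adaptors that was too low for the test stood out, chosen after its values were seen. Pik3r6, an adaptor of the gamma form of PI3K, had 0.839, 0.807 and 0.817 FPKM in the IL-15C libraries and 0.497, 0.396 and 0.464 FPKM in the IL-2C libraries, on 72 to 135 implied fragments a library. The means were 0.821 ± 0.0162 and 0.452 ± 0.0516 FPKM (SD, n = 3), a ratio of 1.82, with all 3 IL-15C values above all 3 IL-2C values. The exact two-sided permutation test gave p = 0.1, the smallest it can give with 3 against 3 libraries, and limma with no filter on low values gave an adjusted p of 0.0819.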
